A study of Mus musculus with 16 samples.

Results

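Macrophages from subcutaneous fat of mice that lack Sucnr1 in myeloid cells were compared with macrophages from the same depot of control mice. The comparison used 8 of the 16 arrays of the series, chosen by their labels alone: 4 arrays labelled as knockout subcutaneous fat (KO SAT) and 4 labelled as wild-type subcutaneous fat (WT SAT). The knockout mice, named LysM-Sucnr1-/- in the labels, carry Cre recombinase under the lysozyme M promoter together with loxP-flanked Sucnr1, and the controls, labelled WT, are Sucnr1 flox/flox mice, so that both genotypes carry the floxed alleles and the Cre transgene is in the knockout alone. All mice were 19 to 21 weeks old, and all source names end in NCD, which the labels do not spell out. Each array holds RNA from a pool of 300000 cells, amplified for 24 cycles, with pools 1 and 2 of each group from day 1 and pools 3 and 4 from day 2. The labels name beads against CD11b in one protocol, and cells positive for the macrophage antigen encoded by Adgre1 in another. They do not say how many mice a pool holds, so the p-values below measure the spread between these pools. The other 8 arrays, from visceral fat of the same genotypes (KO VAT and WT VAT), entered the fit and are set beside the result where it depends on the depot label.

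Sucnr1 encodes the cell surface receptor for succinate, an intermediate of the citric acid cycle that cells release under hypoxia, exercise and inflammation. On myeloid cells the receptor is known to signal through G proteins and to change cytokine production and migration. Macrophages are the most studied immune cells of fat, where they take up lipid and dead adipocytes and release chemokines that draw in other leukocytes. The lysozyme M promoter is active in macrophages, monocytes and neutrophils and, less completely, in some dendritic cells.

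Several chemokines and most interferon-response genes were higher in KO SAT, and some genes of tissue-resident macrophages were lower. Promoter sequences of 3 interferon-response genes among them are shown because their letters hold the interferon-stimulated response element, the DNA site bound by the interferon-activated factor complex. The element was searched as GAAANNGAAA, or TTTCNNTTTC on the other strand, with overlapping matches counted, in the 250 bases before the transcription start (RefSeq, GRCm38.p6). Cxcl10, a chemokine that attracts activated T cells, lies on chromosome 5 on the minus strand, and its window is chr5:92348890-92349139. Gbp2, an interferon-induced GTPase that acts on membranes around pathogens, has its window at chr3:142620413-142620662 on the plus strand. Ifit1, an interferon-induced protein that binds viral RNA ends, has its window at chr19:34640639-34640888 on the plus strand. Each sequence below is read 5′ to 3′ on the gene's strand up to the base before the start, with the element in capitals.
Cxcl10: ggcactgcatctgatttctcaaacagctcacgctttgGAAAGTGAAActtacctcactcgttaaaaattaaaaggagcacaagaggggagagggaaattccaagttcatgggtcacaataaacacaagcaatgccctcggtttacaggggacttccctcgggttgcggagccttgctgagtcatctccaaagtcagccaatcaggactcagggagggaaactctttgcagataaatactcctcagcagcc
Gbp2: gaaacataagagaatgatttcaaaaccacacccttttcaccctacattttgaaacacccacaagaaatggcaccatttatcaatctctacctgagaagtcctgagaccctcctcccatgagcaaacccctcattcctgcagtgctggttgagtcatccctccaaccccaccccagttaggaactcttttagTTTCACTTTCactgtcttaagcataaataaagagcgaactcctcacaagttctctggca
Ifit1: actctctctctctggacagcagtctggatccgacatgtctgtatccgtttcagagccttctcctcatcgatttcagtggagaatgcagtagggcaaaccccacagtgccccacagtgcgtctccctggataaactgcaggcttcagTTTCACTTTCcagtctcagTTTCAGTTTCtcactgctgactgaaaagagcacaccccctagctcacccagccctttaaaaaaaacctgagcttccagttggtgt

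Counted from the transcription start, the element begins at position -213 of Cxcl10 and at -59 of Gbp2. Ifit1 holds 2 of them, at -104 and -85. Of 27025 mouse genes with a window of this kind, 3.46% hold the element. It was found in 5 of 17 type I interferon response genes with a window (29.4%) and in 8 of 14 interferon gamma-induced genes with a window (57.1%). These matches describe the letters and say nothing about binding.

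Values were on the log2 scale of the arrays, between 2.91 and 13.19, and 17097 genes were tested. A gene passed at an adjusted p under 0.05 (limma, two-sided), and the log2 difference is always KO SAT minus WT SAT unless another pair is named, so that a difference of 1 is 2-fold. Between KO SAT and WT SAT, 2859 genes passed as higher (16.7%) and 3420 as lower (20%), and the median difference over all genes was -0.055. Of these, 363 were at least 2-fold higher (2.12%) and 132 at least 2-fold lower (0.772%). All KO SAT arrays lay above all WT SAT arrays for 16% of the genes and below them for 20%. Calls followed the level of a gene: of the 1710 genes with mean levels between 4.54 and 4.94, 7.49% passed as higher and 35% as lower, while of the 1710 brightest genes 31.5% passed as higher and 2.69% as lower. The arrays themselves differed in spread. The interquartile range of values on an array was 2.52 ± 0.12 log2 units in KO SAT and 2.20 ± 0.08 in WT SAT (SD, n = 4 each; difference 0.31, exact permutation test over arrays, two-sided, p = 0.0286, the smallest that 4 against 4 can give). With this spread as a term, 270 genes passed as higher (1.58%) and 1038 as lower (6.07%), so a count near the percentages above says little about a group of genes. The interquartile range ran from 2.37 to 2.63 in KO SAT and from 2.12 to 2.29 in WT SAT, without overlap. The term thus also takes up part of the difference between the groups, and a call lost with it cannot tell spread and genotype apart.

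**Figure D1:**
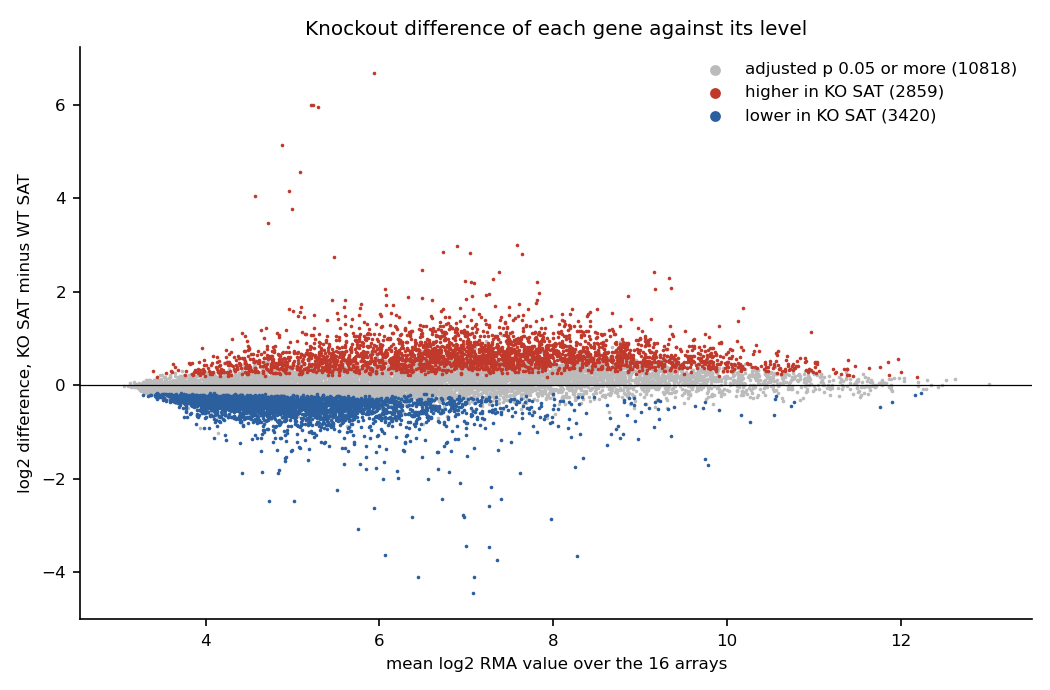
Each point is 1 of the 17097 genes, with its mean log2 RMA value over the 16 arrays on the x axis and the log2 difference between KO SAT and WT SAT on the y axis. The 2859 genes that passed as higher lie mostly at high levels, and the 3420 that passed as lower mostly at low levels.

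The knockout arrays differed from their depot label at some genes. Against WT VAT, KO SAT differed by at least 2-fold in 70 genes that passed, compared with 495 against WT SAT. Correlations between single arrays of KO SAT and WT VAT had a median of 0.982 over 16 pairs, and those between KO SAT and WT SAT a median of 0.970. KO SAT arrays correlated with KO VAT arrays at a median of 0.983. KO VAT also lay nearer to WT VAT, with a median correlation of 0.978 and 275 genes at least 2-fold different, than to WT SAT, with 0.971 and 603 genes. Both sets of knockout arrays were thus nearer to WT VAT by median correlation and by this count. Single pairs overlapped, from 0.930 to 0.989 for KO SAT with WT VAT and from 0.949 to 0.982 with WT SAT. The interquartile range was 2.01 and 2.15 in WT VAT pools 1 and 2, and 2.50 and 2.54 in pools 3 and 4. The part of this spread in the correlations was not tested. Genes that mark body position were divided otherwise. Of 11 measured genes known to mark subcutaneous fat, 7 were lower in KO SAT and 0 were higher, with a list median of -0.41. Tbx15, a T-box factor of subcutaneous fat, averaged 5.29 ± 0.10 in KO SAT and 5.68 ± 0.09 in WT SAT, whereas it averaged 5.75 ± 0.09 in KO VAT and 5.29 ± 0.24 in WT VAT (log2 RMA values, SD, n = 4). Shox2, a homeobox factor, averaged 4.89 ± 0.17 in KO SAT and 5.42 ± 0.10 in WT SAT, with 5.47 ± 0.17 in KO VAT and 5.04 ± 0.15 in WT VAT. By both genes the arrays labelled KO SAT lay beside WT VAT, and those labelled KO VAT beside WT SAT.

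The other subcutaneous position genes that fell in KO SAT were Hoxa9 (-0.67), Hoxc9 (-0.61), Hoxc10 (-0.93), Pitx1 (-0.41) and Sfrp2 (-0.92). En1 was at -0.15, Hoxa10 at -0.20, Hoxd9 at 0.16 and Tbx4 at -0.18, and these did not pass. Of 12 genes known to mark visceral fat, 3 passed as higher in KO SAT, namely Hoxc8 (1.10), Thbd (0.86) and Tcf21 (0.32), and 3 as lower, namely Nr5a1 (-0.60), Isl1 (-0.34) and Gata4 (-0.32). Wt1 (0.19), Gata6 (0.29), Bnc1 (-0.10), Hand2 (-0.20), Hoxa5 (0.07) and Nr2f1 (0.07) did not pass, and 7 of the 12 visceral genes were not above background in SAT. Set against the KO VAT arrays in place of the KO SAT arrays, 2 of the 11 subcutaneous genes were higher than WT SAT and 1 was lower. Because the KO SAT arrays go against their depot label by these genes, an effect of genotype and one of depot cannot be told apart in what follows. KO SAT and KO VAT mean the arrays so labelled, and the value of KO VAT minus WT SAT, which shares the WT SAT arrays, is given beside the main results. A gene of KO SAT that differs from WT SAT may still lie near its WT VAT level, as Tbx15 and Shox2 did.

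The targeted gene was read in every array first. Sucnr1 lay at 3.65, 3.58, 3.53 and 3.44 in KO SAT pools 1 to 4, against 3.54, 3.58, 3.52 and 3.54 in WT SAT (log2 RMA values). Background was taken as the 95th percentile of 41 olfactory receptor genes, which was 4.78, and Sucnr1 was below it on every array, so its probe set checks no genotype label. Lyz2 encodes lysozyme M, and its promoter is the one used for Cre. It lay at 10.01, 10.56, 10.75 and 10.59 in KO SAT, against 10.86, 11.09, 11.36 and 11.18 in WT SAT. Every KO SAT pool was below every WT SAT pool, by 0.64 ± 0.14 on average (SE, n = 4 pools per group, adjusted p = 0.00525). The Cre transgene is in the knockout alone, so loss of Sucnr1 and presence of Cre at Lyz2 cannot be told apart. Of 19 macrophage identity genes, 2 passed, both as lower: Lyz2 and Laptm5, a lysosomal membrane protein of leukocytes, at -0.69. The defining surface and lysosomal markers were well above background in both groups and did not pass: Adgre1, an adhesion receptor of mature mouse macrophages, averaged 8.97 ± 0.25 in KO SAT and 8.86 ± 0.19 in WT SAT, and Itgam, which encodes CD11b, averaged 6.74 ± 0.20 in KO SAT and 6.63 ± 0.13 in WT SAT. The growth factor receptor gene Csf1r averaged 8.49 ± 0.08 in KO SAT and 8.52 ± 0.20 in WT SAT, and Cd68 averaged 11.39 ± 0.13 in KO SAT and 11.47 ± 0.08 in WT SAT. The list ran from -0.69 to 0.32, with a median of -0.051, against -0.055 for all genes. It averaged 8.61 to 9.17 on the SAT arrays, and the median of the 1710 brightest genes was 0.24. Of those brightest genes 31.5% passed as higher and 2.69% as lower, against 0% and 10.5% of the list, so it lay lower than genes of its level. The list median was -0.29 with array spread as a term, and in KO VAT minus WT SAT 15 of the 19 genes were lower and 0 higher, with a median of -0.62. In bulk RNA of a pool, fewer cells of a type and less RNA per cell cannot be told apart.

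**Figure D2:**
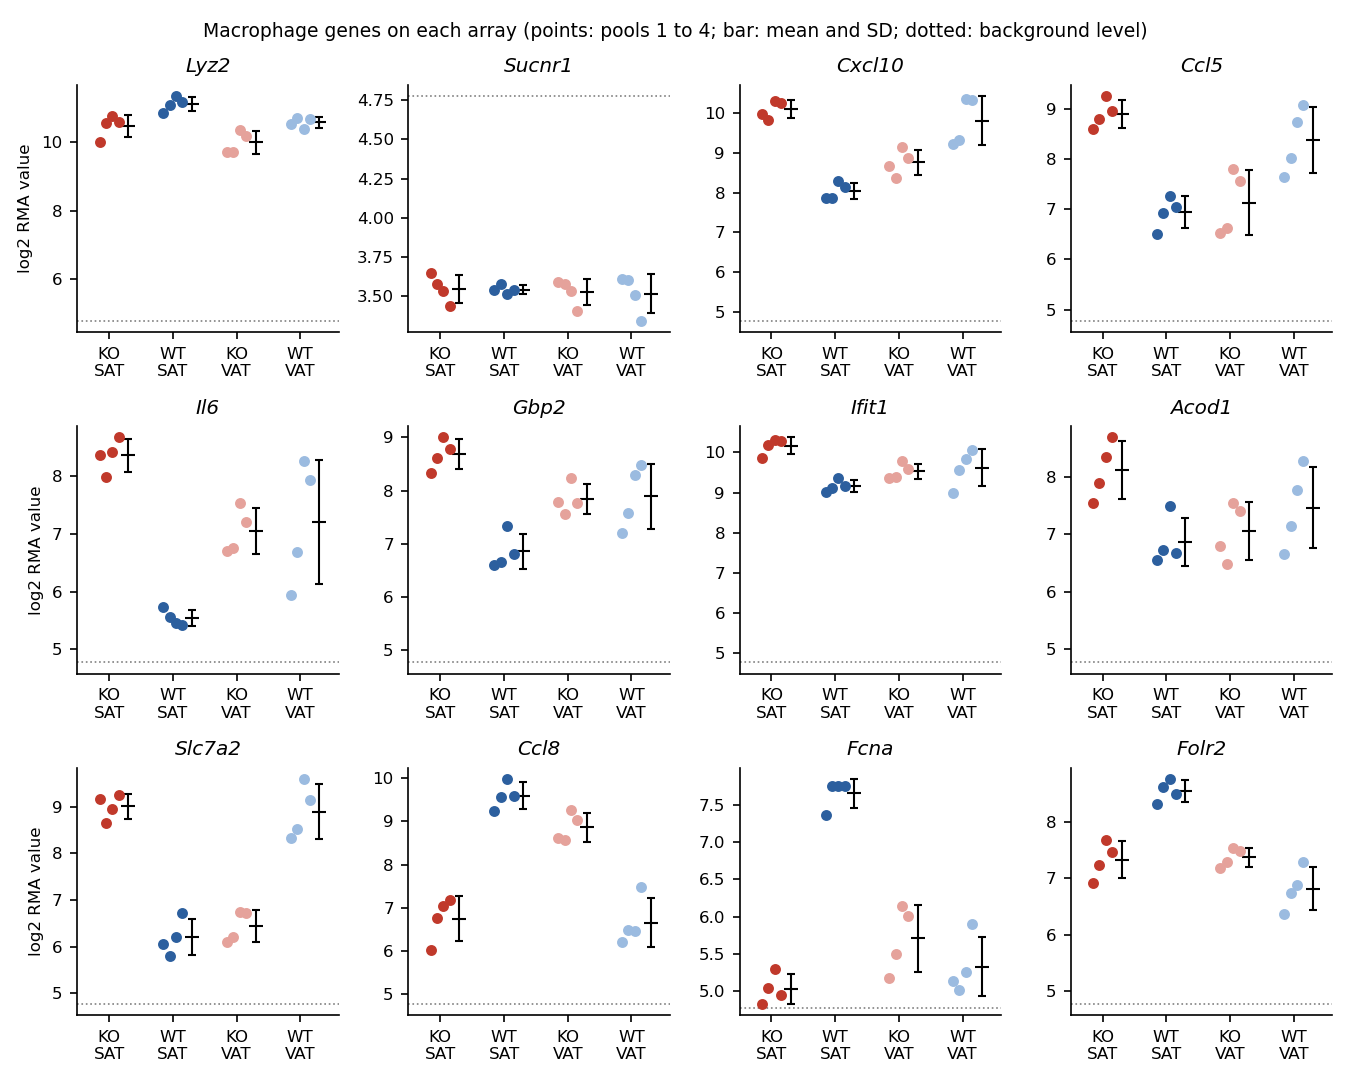
Points are the log2 RMA values of 12 genes in pools 1 to 4 of KO SAT, WT SAT, KO VAT and WT VAT, bars are the mean and SD of the 4 pools, and the dotted line is the background level of 4.78. Cxcl10, Ccl5, Il6, Gbp2, Ifit1, Acod1 and Slc7a2 lie higher in KO SAT than in WT SAT on every array, Lyz2, Ccl8, Fcna and Folr2 lie lower, and Sucnr1 is below background throughout.

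RNA of tissues outside fat differed more than any macrophage gene. Svs4, a secreted protein of the seminal vesicle, lay at 11.59, 11.78, 11.36 and 11.04 in KO SAT, against 3.90, 7.30, 3.79 and 4.05 in WT SAT. Pool 2 of WT SAT held a clear signal and the other WT SAT pools were below background. Means were 3.76 in KO VAT and 3.79 in WT VAT. Of 13 seminal vesicle and male tract genes, 11 were higher in KO SAT, all at least 2-fold, and the largest rises of all genes were among them. Svs4 differed by 6.68 ± 0.52 (adjusted p = 1.42e-06), Svs2 and Svs3a by 5.99, Svs6 by 5.95, Pate14 by 5.14, Ceacam10 by 4.57, Sva by 4.16, Svs3b by 4.05, Pate4 by 3.78, Spink1 by 3.47, Lcn5 by 2.75 and Svs5 by 2.29. They are known for secreted proteins of the male tract. Pate14 is not in the list. Svs5 averaged 9.07 ± 0.48 in WT SAT and Tgm4 5.60 ± 0.24, and the other 11 list members averaged below background there. These Svs5 values are from the brightest of its 5 probe sets, and the other 4 were dimmer and differed by 4.10 to 6.17. Lcn5, a gene of the epididymis, was at 4.69 in KO SAT pool 2, below background, and at 7.10 to 8.68 in the other KO SAT pools. Pbsn (-0.05) and Tgm4 (0.30), which mark the prostate, did not pass. The summed level of the list on the linear scale ran from 7296 to 11771 over the KO SAT pools and from 523.3 to 1136 over the WT SAT pools. For the genes at background in WT SAT the differences understate the ratio. In KO VAT minus WT SAT, 0 of the 13 list members passed as higher and 1 as lower, with Svs4 at -1.01, Svs5 at -0.92 and Spink1 at 0.02.

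Skeletal muscle RNA went the other way. Acta1, the actin of skeletal muscle fibres, lay at 5.13, 5.14, 4.98 and 4.97 in KO SAT, against 9.05, 9.23, 9.84 and 8.51 in WT SAT. The muscle calcium pump gene Atp2a1 fell by 4.10 ± 0.20 (adjusted p = 3.27e-09), as did Acta1 (SE 0.24), and the troponin gene Tnnc2 fell by 4.44. Of 18 muscle genes, 16 were lower in KO SAT and 1 was higher, with a median of -1.84. Among them were the myosin light chain gene Myl1 (-2.48), the creatine kinase gene Ckm (-2.01), the troponin gene Tnnt3 (-2.48) and the calcium buffer gene Pvalb (-3.64). Summed levels of the muscle list ran from 696.7 to 828.7 in KO SAT, from 2793 to 5138 in WT SAT, from 904.1 to 1455 in KO VAT and from 667.8 to 800.2 in WT VAT. The ranges of KO SAT and WT VAT overlapped, and that of WT SAT stood above both. These marker levels move with the comparison, and their part in the results below was not tested.

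**Figure D3:**
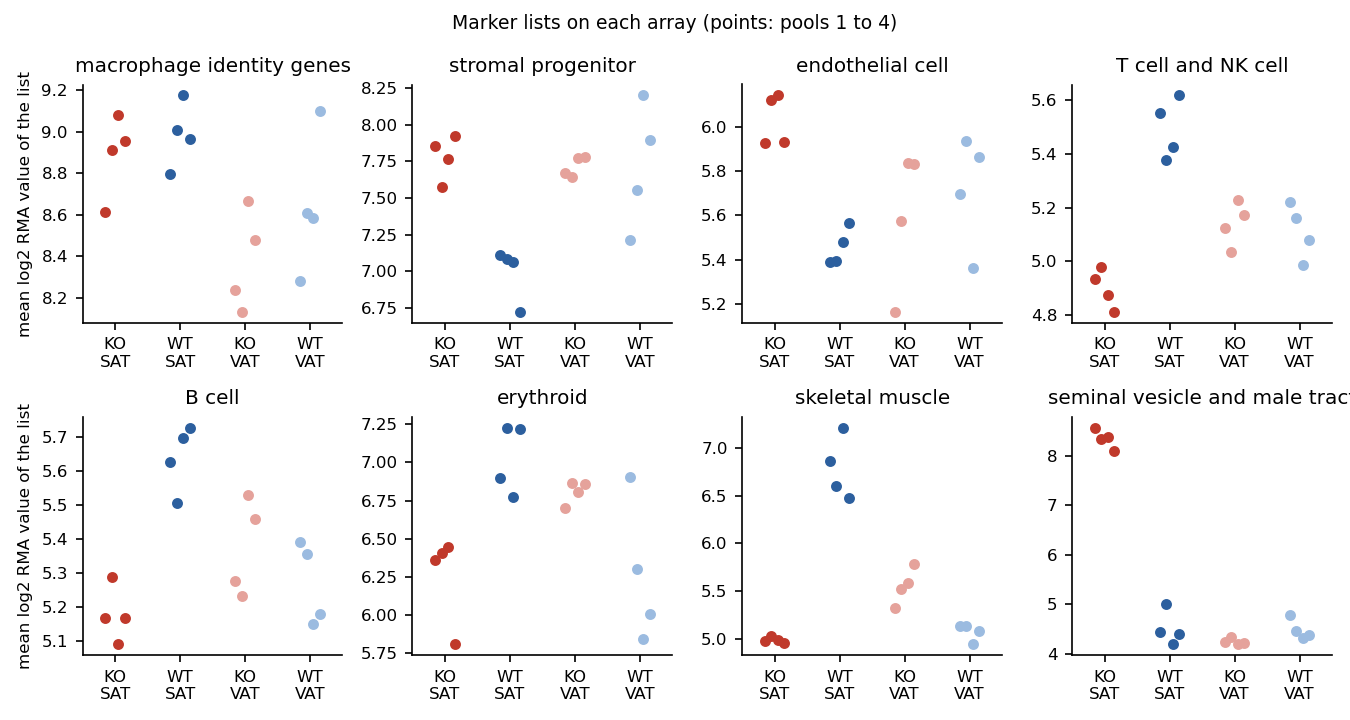
Points are the mean log2 RMA value of a marker list on each array, for pools 1 to 4 of KO SAT, WT SAT, KO VAT and WT VAT. The seminal vesicle list is high in KO SAT alone, the muscle list is highest in WT SAT, and the stromal and endothelial lists are higher in KO SAT than in WT SAT.

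Chemokines that attract T cells were higher in KO SAT. Cxcl10, whose promoter is shown above, lay at 9.98, 9.84, 10.31 and 10.25 in KO SAT, against 7.87, 7.86, 8.28 and 8.14 in WT SAT. The groups did not overlap, and the difference was 2.06 ± 0.14 (4.16-fold, adjusted p = 2.21e-07). Ccl5, a ligand of receptors on T cells and monocytes, lay at 8.60, 8.79, 9.26 and 8.96 in KO SAT, against 6.51, 6.93, 7.26 and 7.05 in WT SAT. Ccl5 was 3.91-fold higher (1.97 ± 0.17, adjusted p = 5.9e-06). Cxcl16, which binds the receptor Cxcr6, was higher by 0.31 ± 0.09 (adjusted p = 0.0211). The Cxcr3 ligands Cxcl9 (0.18) and Cxcl11 (0.06) did not pass, and both were below background. Thus 3 of 5 members rose (60%), against 16.7% of all genes and 33.6% of those with mean levels between 6.72 and 7.51. Of the 3, Cxcl10 and Ccl5 also passed with array spread as a term (1.58 and 1.56). KO VAT minus WT SAT was 0.72 for Cxcl10, 0.19 for Ccl5 and -0.55 for Cxcl16, so the last went the other way. Cxcl16 also turned to -0.30 when the arrays were scaled to one median and interquartile range. Summed levels of the 5 members ran from 2574 to 3238 in KO SAT and from 1245 to 1556 in WT SAT. They ran from 1729 to 3263 in WT VAT, which overlapped KO SAT, and from 1051 to 1651 in KO VAT.

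The receptors for these chemokines, carried mostly by T and NK cells, were lower in KO SAT: Cxcr3 by 0.69 ± 0.13 (adjusted p = 0.00206) and Cxcr6 by 0.47, with Cxcr6 below background in both groups. Ccrl2, a non-signalling chemerin receptor of activated macrophages, was higher by 0.89. T cell genes fell beside them. Cd3e, a chain of the T cell receptor complex, lay at 5.78, 6.02, 5.90 and 5.47 in KO SAT, against 7.93, 7.19, 7.89 and 8.16 in WT SAT (-2.0 ± 0.21, adjusted p = 3.43e-05). Its partners Cd3d (-1.34) and Cd3g (-1.68) and the costimulatory receptor gene Icos (-2.23) fell as well. Of 20 T and NK cell genes, 14 were lower and 1 was higher. The 70% that fell is set against 20% of all genes and 34.5% of those with mean levels between 4.94 and 5.42. Of the 20, 6 passed as lower and 0 as higher with array spread as a term. Their summed level ran from 754.1 to 774.8 in KO SAT and from 1080 to 1403 in WT SAT.

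Of 16 chemokines that attract myeloid cells, 7 rose, 1 fell and 8 did not pass, with a median of 0.32. The shares were 43.8% higher and 6.25% lower. Of all genes with mean levels between 7.51 and 8.60, 35.6% were higher and 3.74% lower, also with a median of 0.32. For the list, adding array spread as a term gave 2 higher and 1 lower, and in KO VAT minus WT SAT 3 were higher and 4 lower, with a median of -0.21. The neutrophil attractants Cxcl1 (1.28 ± 0.17, adjusted p = 0.000255), Cxcl2 (0.75) and Cxcl5 (0.74) and the monocyte attractant Ccl2 (0.74) were among those that rose. Ccl24, an eosinophil attractant made by alternatively activated macrophages, lay at 6.11, 7.09, 7.97 and 8.17 in KO SAT, against 5.62, 5.68, 5.71 and 5.49 in WT SAT. Its 4 KO SAT pools spread over more than 2 log2 units, and the difference was 1.71 ± 0.35 (adjusted p = 0.00365). Ccl8, a monocyte attractant of resident macrophages, was the member that fell. It lay at 6.02, 6.76, 7.04 and 7.17 in KO SAT, against 9.25, 9.58, 9.99 and 9.58 in WT SAT, a 7.21-fold lower level (-2.85 ± 0.20, adjusted p = 3.5e-07). KO VAT minus WT SAT was 1.31 for Cxcl1, 0.58 for Cxcl2, 0.76 for Cxcl5, 0.04 for Ccl2, -0.32 for Ccl24 and -0.73 for Ccl8. Cxcl1, Cxcl2 and Cxcl5 thus passed as higher than WT SAT with either set of knockout arrays.

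Among 27 inflammatory cytokines and NF-kB target genes, 9 rose and 4 fell, with a median of 0.22. Il6, the cytokine interleukin 6, lay at 8.38, 7.98, 8.42 and 8.68 in KO SAT, against 5.73, 5.56, 5.46 and 5.42 in WT SAT. It was 7.06-fold higher (2.82 ± 0.30, adjusted p = 4.39e-05), and KO VAT minus WT SAT was 1.51. Icam1, an adhesion molecule induced by NF-kB, rose by 1.56 and Nfkbiz, a nuclear regulator of NF-kB, by 1.38. Other, dimmer probe sets of Nfkbiz were at 0.58 and 0.24. The leukocyte protease inhibitor gene Slpi fell by 1.05 and the acute phase gene Saa3 by 1.85 ± 0.32 (adjusted p = 0.0013). With array spread as a term, 3 of the list passed as higher and 3 as lower, and Il6 was at 1.71 (adjusted p = 0.00079). Il6 is also made by fat stromal cells, and stromal genes were higher in KO SAT. Of 20 stromal progenitor genes, 12 rose and 2 fell, with a median of 0.69 and a summed level of 10342 to 12526 in KO SAT against 6171 to 8257 in WT SAT.

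**Figure D4:**
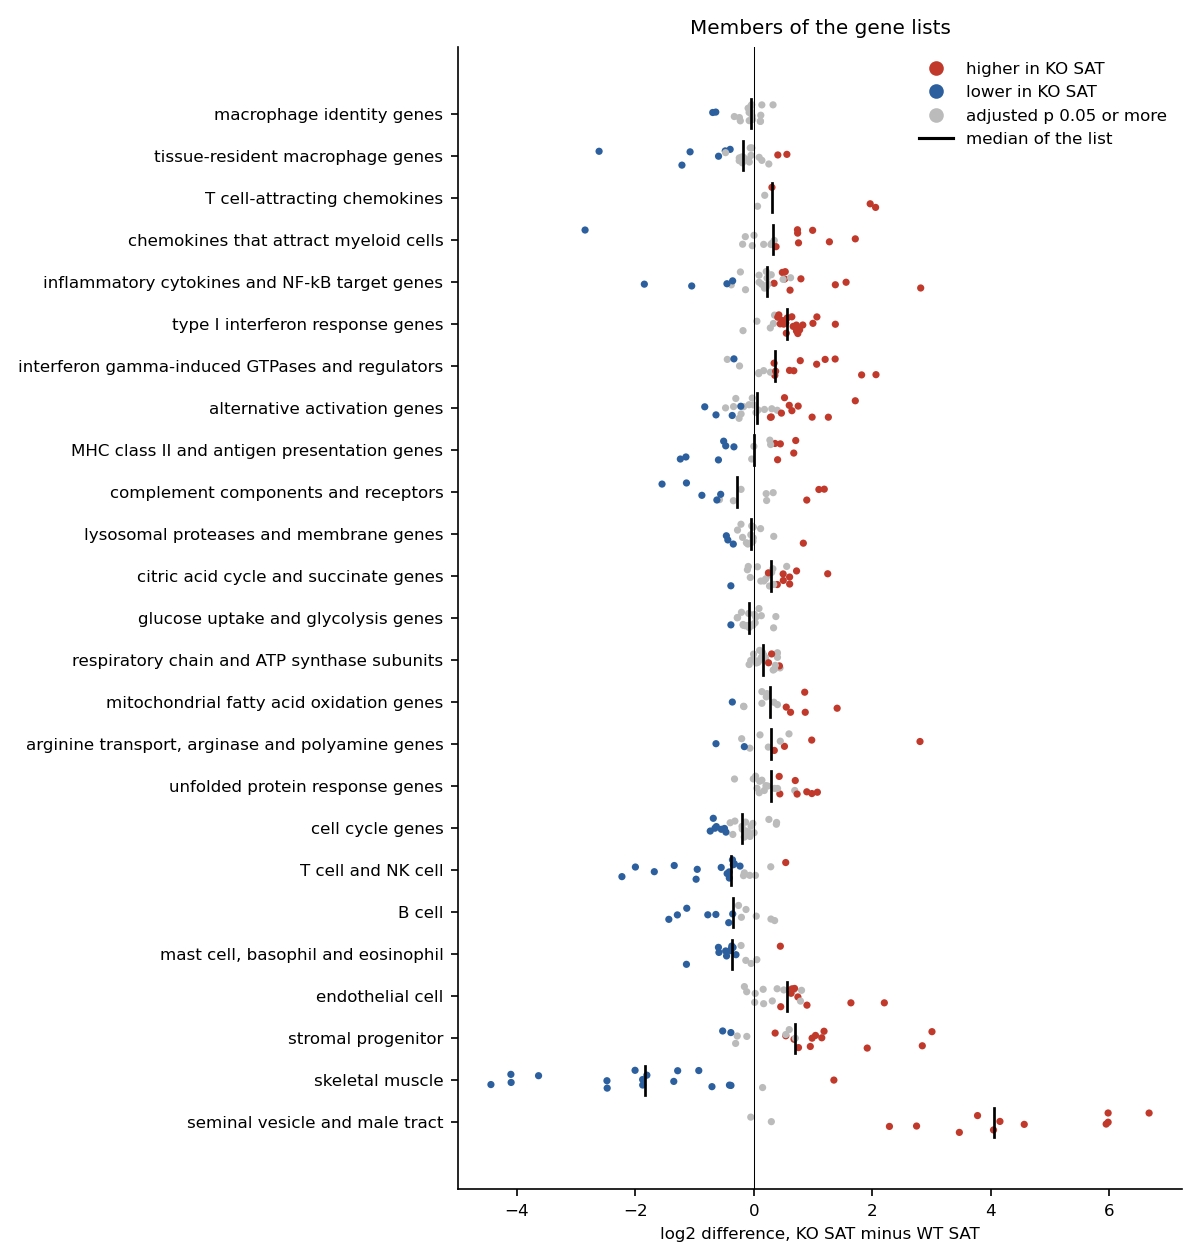
Each point is a member of a gene list, placed by its log2 difference between KO SAT and WT SAT and coloured by whether it passed, and black marks are list medians. The medians of the interferon and stromal lists lie to the right of 0 (0.56 for type I interferon), those of the muscle and T cell lists to the left, and that of the macrophage identity list at -0.051.

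Interferon-response genes moved upward. Of 24 type I interferon response genes, 19 rose and 0 fell, with a median of 0.56. The share that rose was 79.2%, against 16.7% of all genes and 31.5% of the 1710 brightest genes. Ifit1 lay at 9.86, 10.20, 10.32 and 10.29 in KO SAT, against 9.02, 9.11, 9.37 and 9.17 in WT SAT, which was 2-fold (1.00 ± 0.13, adjusted p = 0.000252). Ifih1, a sensor of double-stranded RNA, rose by 1.07, Ifit2 by 1.38, Ifit3 by 0.54 and Parp14, an ADP-ribosyltransferase of interferon-treated macrophages, by 0.83. All 24 genes were above background. With array spread as a term 5 of them passed as higher, and the list median was 0.092. In KO VAT minus WT SAT, 4 passed as higher and 2 as lower, with Ifit1 at 0.36 and Ifit3 at 0.14. Scaling the arrays to one median and interquartile range turned Ifit3 to -0.23. Summed levels of the list ran from 23169 to 28203 in KO SAT and from 15776 to 20605 in WT SAT. In WT VAT they ran from 15307 to 26560, which overlapped both.

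Interferon gamma-induced genes were higher as well. Gbp2 lay at 8.33, 8.61, 9.0 and 8.78 in KO SAT, against 6.61, 6.67, 7.34 and 6.82 in WT SAT, and was 3.53-fold higher (1.82 ± 0.16, adjusted p = 8.42e-06). Its relative Gbp3 was higher by 2.06 ± 0.22 (adjusted p = 4.51e-05) from a level near background in WT SAT. The immunity-related GTPase genes Iigp1 (1.37) and Irgm2 (0.68) and Gbp7 (1.06) rose too. Among 18 members 11 rose and 1 fell, with a median of 0.36, and 3 and 1 passed with array spread as a term. Against WT SAT, KO VAT was higher by 0.98 for Gbp2, 1.27 for Gbp3 and 1.16 for Iigp1. These 3 thus stood above WT SAT on both sets of knockout arrays. Summed levels of the list ran from 5708 to 7111 in KO SAT and from 3991 to 5005 in WT SAT. In WT VAT they ran from 3416 to 6612, which overlapped both.

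Genes of tissue-resident macrophages were divided. Fcna, a ficolin that recognises sugars on microbes, lay at 4.84, 5.05, 5.30 and 4.96 in KO SAT, against 7.36, 7.75, 7.75 and 7.75 in WT SAT. It fell by 2.61 ± 0.16 (adjusted p = 7.1e-08), and to a level just above background in KO SAT. Folr2, a folate receptor of resident macrophages, lay at 6.92, 7.24, 7.68 and 7.46 in KO SAT, against 8.30, 8.62, 8.76 and 8.48 in WT SAT (-1.21 ± 0.13, adjusted p = 4.51e-05). The coagulation factor gene F13a1 (-1.08) and the hyaluronan receptor gene Lyve1 (-0.48) fell with them. Of 22 resident genes, 6 fell and 2 rose (27.3% and 9.09%), and the ubiquitin ligase gene Wwp1 was one of those that rose, by 0.56, which was -0.00085 with array spread as a term. KO VAT minus WT SAT was -1.94 for Fcna, -1.17 for Folr2 and -0.86 for F13a1, so these falls were present against either set of knockout arrays.

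Genes of monocytes and of lipid-associated macrophages showed no common direction. Among 12 monocyte genes, 4 fell, such as the integrin gene Itgal (-0.94) and the peptidase gene Ace (-0.34), and 2 rose, the matrix genes Vcan (0.49) and Fn1 (0.98). Among 17 lipid-associated macrophage genes, 3 rose and 3 fell. Fabp4, a fatty acid-binding protein of macrophages and adipocytes, was 2.59-fold higher (1.37 ± 0.19, adjusted p = 0.000359), and the integrin gene Itgax (0.89) and the tetraspanin gene Cd9 (0.56) rose. Gpnmb, a lysosomal glycoprotein of lipid-loaded macrophages, lay at 9.96, 10.19, 10.30 and 10.10 in KO SAT, against 10.68, 10.99, 11.08 and 10.94 in WT SAT (-0.79 ± 0.11, adjusted p = 0.0004). Apoe, the apolipoprotein of the same cells, fell by 0.48. Fabp4 is itself in the adipocyte list, of which 3 of 13 rose and 4 fell, with a median of 0.12. Adipoq, an adipocyte hormone, was another that rose, by 0.62. Summed adipocyte marker levels, which take in Fabp4, were 2769 to 3587 in KO SAT and 1668 to 2245 in WT SAT.

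Alternative activation genes rose in 10 and fell in 4 of 28 members, with a median of 0.054. The balance turned with array spread as a term, when 2 passed as higher and 7 as lower. The transcription factor genes Egr2 (1.26 ± 0.14, adjusted p = 4.8e-05) and Klf4 (0.75), the transglutaminase gene Tgm2 (0.60) and Ccl24 were among those that rose. Other, dimmer probe sets were at 0.19 for Klf4 and 0.04 for Tgm2. Arg1, the arginase that defines this state in mouse macrophages, lay at 8.49, 8.56, 8.88 and 8.53 in KO SAT, against 8.93, 9.48, 9.30 and 9.31 in WT SAT. It was lower by 0.64 ± 0.22 (adjusted p = 0.0386). Chil3, a chitinase-like secreted protein, was lower by 0.83 with both group means below background. The signature genes Retnla (0.04) and Mrc1 (-0.17), named after their values were seen, did not pass.

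MHC class II genes were divided. H2-DMb2, which loads peptide onto class II molecules, fell by 1.15 ± 0.12 (adjusted p = 4.39e-05) and H2-Ob, a B cell inhibitor of that step, by 1.24. H2-Oa (-0.60), H2-DMb1 (-0.47) and H2-Eb2 (-0.51) were lower at levels near or below background. Across 15 members 5 rose and 6 fell, with a median of 0.00058. The 5 that rose, named after their values were seen, were the class II chain genes H2-Aa (0.40), H2-Ab1 (0.36) and H2-Eb1 (0.45) and the costimulatory genes Cd80 (0.71) and Cd86 (0.67). Other, dimmer probe sets of Cd80 were at 0.06, 0.09 and -0.18. On arrays scaled to one median and interquartile range the class II chain genes turned to -0.26, -0.41 and -0.18 in that order, so their direction depended on the scaling. B cell genes fell beside them. The B cell receptor genes Cd79a (-1.44 ± 0.22, adjusted p = 0.000663) and Cd79b (-1.29) and the kinase gene Blk (-1.13) were lower, as were 7 of 13 B cell genes with 0 higher. Of these 13, 0 passed in either direction by limma with array spread as a term. Summed B cell levels were 701.2 to 792.9 in KO SAT and 836.7 to 981.7 in WT SAT.

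Some pattern recognition genes were higher. Tlr3, the receptor for double-stranded RNA, was 2.44-fold higher (1.29 ± 0.16, adjusted p = 0.000154), and Tlr2 (0.65) and the adaptor gene Myd88 (0.53) rose. Of 15 members 5 rose and 2 fell, with a median of 0.12. In the fit with array spread 1 passed as higher and 0 as lower, with a median of -0.092, and in KO VAT minus WT SAT 1 was higher and 6 were lower. Complement genes were divided by 3 rises and 5 falls among 14 members. Cfp, properdin, which stabilises the alternative pathway convertase, fell by 1.14 ± 0.14 (adjusted p = 0.000149), C4b by 1.55 and the anaphylatoxin receptor gene C5ar1 by 0.62. The protease gene C1s1 rose by 1.19. For C4b the value for KO VAT minus WT SAT was 0.85, the other direction, and for Cfp it was -0.94. Lysosomal genes changed in 4 of 17 members: Lamp2 rose by 0.84, and the cathepsin genes Ctsl (-0.46), Ctsk (-0.44) and Ctsd (-0.35) fell. In the fit with array spread 0 complement genes passed as higher and 8 as lower, and 1 lysosomal gene as higher and 7 as lower.

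Metabolic genes next to the succinate pathway were examined because succinate is the ligand of the deleted receptor. Acod1, which makes itaconate in activated macrophages and thereby slows succinate dehydrogenase, lay at 7.55, 7.88, 8.34 and 8.68 in KO SAT, against 6.55, 6.73, 7.49 and 6.68 in WT SAT. It was 2.38-fold higher (1.25 ± 0.19, adjusted p = 0.000727), with KO VAT minus WT SAT at 0.19. The succinate dehydrogenase subunit gene Sdhd rose by 0.50 from below background in WT SAT, the malate dehydrogenase gene Mdh1 by 0.72 and the cytosolic aconitase gene Aco1 by 0.60. The mitochondrial dicarboxylate carrier gene Slc25a10, which exchanges succinate and malate, fell by 0.39. In all, 8 of 22 citric acid cycle and succinate genes rose (36.4%) and 1 fell (4.55%). Those shares were near the 35.6% and 3.74% of all genes with mean levels between 7.51 and 8.60. With array spread as a term 0 of the 22 passed as higher and 3 as lower by limma. Of 18 metabolite receptors, Sucnr1 included, 1 rose, the prostaglandin E2 receptor gene Ptger4 (0.66 ± 0.09, adjusted p = 0.00025), and 5 fell, among them Gpr132, a receptor of protons and lipids (-0.45), and the nucleotide receptor gene P2ry13 (-0.75).

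Fatty acid oxidation genes rose in 5 and fell in 1 of 14 members (35.7% and 7.14%). Those shares were near the 33.6% and 8.48% of all genes with mean levels between 6.72 and 7.51. Hadh, of the third step of the cycle, rose by 1.41, the medium-chain dehydrogenase gene Acadm by 0.86 and the electron carrier gene Etfdh by 0.62. Another, dimmer probe set of Hadh was at 0.33. The list median was 0.28, and -0.19 with array spread as a term, when 0 of the 14 passed as higher and 2 as lower by limma. Of 24 respiratory chain subunits, 3 rose and 0 fell, among them Cox5a (0.30), which turned to -0.27 on scaled arrays, and Uqcrfs1 (0.43), which turned to -0.19 with array spread as a term. With that term 0 of the 24 passed as higher and 6 as lower by limma. Glycolysis genes moved in 1 of 19 members, the pyruvate dehydrogenase kinase gene Pdk1 (-0.39), whose other probe sets were dimmer and at 0.03 and 0.19. With array spread as a term 7 of the 19 passed as lower. Among 17 hypoxia genes 5 rose and 2 fell. Epas1, the oxygen-regulated factor HIF-2 alpha, was 2.64-fold higher (1.40 ± 0.21, adjusted p = 0.000663) and Hif1a rose by 0.42, which turned to -0.08 on scaled arrays. In lipid synthesis 2 of 20 rose, the desaturase gene Scd1 (1.32) and the citrate lyase gene Acly (0.65), and 1 fell. Among 9 cholesterol efflux genes the transporter gene Abcg1 rose (0.56) and 3 fell, such as the phospholipid transfer gene Pltp (-0.76).

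Slc7a2 was among the 15 named genes with the largest rises. It encodes the arginine transporter CAT2, which supplies nitric oxide synthase and arginase. Its values were 9.17, 8.64, 8.96 and 9.25 in KO SAT, against 6.05, 5.81, 6.22 and 6.72 in WT SAT. The level was 7-fold higher (2.81 ± 0.17, adjusted p = 7.1e-08), and all 4 probe sets of the gene were higher, by 1.94 to 3.38. KO VAT minus WT SAT was 0.24, and means were 6.44 in KO VAT and 8.90 in WT VAT. Of 12 arginine and polyamine genes 4 rose, such as the related transporter gene Slc7a1 (0.98) and the polyamine enzyme gene Odc1 (0.52), and 2 fell, such as Arg1. Of the 12, 1 passed as higher and 4 as lower with array spread as a term.

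Retinoid and steroid enzymes held some of the largest changes in both directions. Rdh10, which oxidises retinol to retinal, lay at 8.14, 8.13, 8.15 and 8.36 in KO SAT, against 5.30, 5.39, 5.18 and 5.00 in WT SAT (2.98 ± 0.30, adjusted p = 2.43e-05). Aldh1a2, which makes retinoic acid in the next step, was higher by 1.54 and the hydroxylase gene Cyp1b1 by 0.97. Adh7, another retinol dehydrogenase gene, lay at 6.26, 6.32, 5.86 and 6.0 in KO SAT, against 9.91, 9.95, 9.77 and 9.40 in WT SAT (-3.65 ± 0.15, adjusted p = 5.71e-10). Akr1c18, which inactivates progesterone, lay at 5.47, 5.26, 5.30 and 4.99 in KO SAT, against 8.79, 8.99, 8.79 and 8.25 in WT SAT (-3.45 ± 0.15, adjusted p = 6.57e-10). With the KO VAT arrays in place of KO SAT, the differences were 1.48 for Rdh10, 0.18 for Aldh1a2, 0.21 for Adh7 and 1.48 for Akr1c18. Akr1c18 was thus lower than WT SAT on the arrays labelled KO SAT and higher on those labelled KO VAT.

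Stress and growth genes were examined by list. Of 20 unfolded protein response genes 7 rose and 0 fell, among them the chaperone genes Hspa5 (1.07 ± 0.18, adjusted p = 0.00109) and Calr (0.90) and the transcription factor gene Xbp1 (0.98). The 35% that rose was near the 35.6% of all genes with mean levels between 7.51 and 8.60. The list median turned to -0.11 with array spread as a term, and 1 of the 20 then passed as higher and 4 as lower. Of 21 immediate early genes, which respond to cell isolation, 6 rose, such as Junb (0.93) and Egr1 (0.61), and Egr3 fell (-0.71). Among 10 heat shock genes 2 rose, such as Hspa1b (0.84), and among 14 Nrf2 antioxidant genes 2 rose, such as Nfe2l2 itself (0.72), which turned to -0.32 with array spread as a term. With that term 2 immediate early genes, 1 heat shock gene and 5 Nrf2 genes passed as lower. Iron genes rose in 4 and fell in 2 of 16 members, with the transferrin receptor gene Tfrc at 0.65 (-0.18 with array spread as a term) and the ferritin gene Fth1 at -0.36. Prostaglandin genes rose in 4 of 18 members, such as the synthase gene Ptges (0.74) and the degrading enzyme gene Hpgd (1.22). Cell cycle genes fell in 7 of 23 members and rose in 0, and Rrm2 (-0.68), Cdk1 (-0.74) and Ube2c (-0.66), needed for DNA synthesis and division, were among them. Of 20 cytosolic ribosomal protein genes 0 passed by limma, and their median was 0.029. However, 7 of them passed as lower with array spread as a term, with a median of -0.25.

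Further cell types were read by list, to be set against the 16.7% of all genes that passed as higher and the 20% as lower. Endothelial genes rose in 8 of 20 members and fell in 0, with a median of 0.57. Cdh5, the cadherin of endothelial junctions, lay at 9.20, 8.92, 9.33 and 8.77 in KO SAT, against 6.62, 6.56, 7.04 and 7.17 in WT SAT (2.21 ± 0.48, adjusted p = 0.00514), and the angiopoietin receptor genes Tek (1.64) and Tie1 (0.90) rose. Endothelial summed levels were 1825 to 2266 in KO SAT and 1058 to 1209 in WT SAT. Stromal genes held 2 of the largest rises. Cxcl12, a chemokine of stromal progenitors, was higher by 3.01 ± 0.23 (adjusted p = 1.18e-06) and Tnfrsf11b, a soluble decoy receptor for the osteoclast factor RANKL, by 2.85. KO VAT minus WT SAT was 1.46 for Cxcl12 and -0.37 for Tnfrsf11b. The fibril gene Mfap5 (1.92) and the secreted glycoprotein gene Fstl1 (1.15) rose too.

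Mast cell, basophil and eosinophil genes fell in 10 of 15 members and rose in 1, with the chymase gene Cma1 at -1.14 and 9 of the 15 not above background. Just 1 of them passed as lower with array spread as a term. Red cell genes fell in 5 of 7 members, with the globin genes Hbb-b2 at -1.87 and Hba-a1 at -1.71, and the labels' protocol includes a red cell lysis step. Neutrophil genes fell in 4 of 11 members (36.4%), such as the calprotectin gene S100a9 (-0.78). That share was near the 34.5% of all genes with mean levels between 4.94 and 5.42 that passed as lower. Dendritic cell genes fell in 5 of 10 members and rose in 1, the actin-bundling gene Fscn1 (0.79). Among 13 mesothelial genes the keratin genes Krt8 (1.11) and Krt18 (1.09) rose, which are also keratins of secretory epithelium, and 1 fell. Other lists lay near the shares of all genes. Peritoneal macrophage genes rose in 3 and fell in 5 of 18 members (16.7% and 27.8%). Smooth muscle and pericyte genes rose in 2 and fell in 2 of 9 (22.2% each). Adipocyte genes rose in 3 and fell in 4 of 13 (23.1% and 30.8%). Keratinocyte and mammary genes rose in 2 and fell in 4 of 19 (10.5% and 21.1%). Farther from those shares, nerve genes fell in 5 of 8 (62.5%). The part of these cell types in the differences above was not tested.

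A last set of large falls was uneven between pools. Ssty2, a testis gene of the Y chromosome, lay at 4.20, 7.55, 5.46 and 5.04 in KO SAT, against 9.03, 8.86, 9.49 and 9.84 in WT SAT (-3.74 ± 0.71, adjusted p = 0.0024). The related Y-linked Ssty1 (-2.81), Orly (-2.57) and the X-linked Astx6 (-3.43) fell as well, as did the pheromone receptor gene Vmn1r148 (-2.78). With array spread as a term 0 of these 5 passed by limma, with Ssty2 at -1.34 (adjusted p = 0.28) and Vmn1r148 at -0.43 (adjusted p = 0.66). Igkj1, a joining segment of the antibody light chain, lay at 3.66, 7.78, 3.66 and 3.63 in KO SAT, against 6.65, 6.54, 9.33 and 8.48 in WT SAT. Pool 2 of KO SAT was within the WT SAT range, and the difference was -3.07 ± 0.89 (adjusted p = 0.0185).

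The knockout difference in subcutaneous fat was set against that in visceral fat, KO VAT minus WT VAT, in the same fit. The 2 differences themselves differed in 722 of 17097 genes (4.22%). Slc7a2 differed by 5.26, since it was higher by 2.81 in SAT and lower by 2.45 in VAT. Ccl8 differed by -5.06, with a difference of 2.21 in VAT, and Cxcl10 by 3.11, with -1.05 in VAT. Adh7 (-6.36) and Akr1c18 (-8.72) differed further. Of the 24 type I interferon response genes 12 differed between depots, and of the 19 macrophage identity genes 0 by limma. Against WT SAT, KO VAT had 3131 genes that passed as higher (18.3%) and 3586 as lower (21%). Of the 495 genes at least 2-fold different in KO SAT, 413 also passed in the same direction with the KO VAT arrays in their place. Both comparisons use the same WT SAT arrays, so this overlap is not independent.

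**Figure D5:**
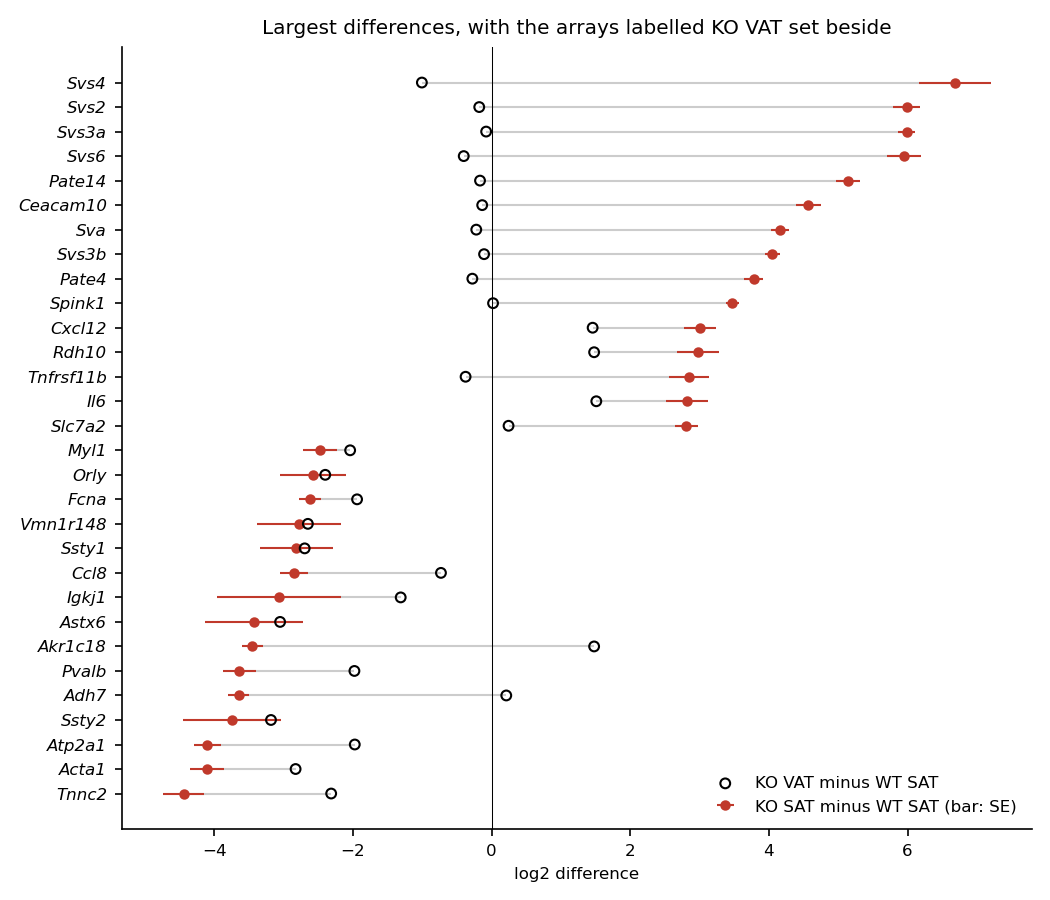
Filled points are the log2 differences between KO SAT and WT SAT of the 30 named genes with the largest rises and falls, with the SE as a bar, and open points are KO VAT minus WT SAT. The seminal vesicle genes have open points at or below 0.02 and Slc7a2 at 0.24, Akr1c18 has one on the other side of 0, and the muscle genes keep their direction.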

How the data were processed

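RNA from 16 pools of adipose tissue macrophages was measured on Affymetrix mouse arrays, 4 pools in each of the groups KO SAT, WT SAT, KO VAT and WT VAT, assigned by source name. The authors deposited log2 values made with RMA in the affy package, per the submitters' processing notes; versions are not given in the sources used here. Of 45141 probe sets, 104 are controls, 28898 name 1 gene, 551 name several and 15588 are not listed in the annotation used. Unlisted probe sets and those of several genes were left out. Each gene was read from its probe set of highest mean over the 16 arrays, which left 17097 genes.

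All genes were fitted with limma 3.58.1 (R 4.3.3; lmFit and eBayes) with group and day as terms on all 16 arrays, and p-values were adjusted by Benjamini-Hochberg over all genes. The precision rests on 4 pools a group, with a median SE of 0.12. On simulated arrays 200 of 17097 genes were changed, 149 were called with 12 of them false, and 41% of changes of 0.5 and 96% of changes of 1 on the log2 scale were recovered. The simulated arrays had independent noise and no group difference in array spread, so these rates need not hold for the calls above. The members and gene lists were chosen with earlier results of these data known, and the 2-fold count was chosen after the share of genes that passed was seen. Genes were named if they had one of the 15 largest rises or falls past the threshold with the same sign on both days (gene models without a proper name left out), if they were among the 5 of smallest p in a list, or if they were Sucnr1, Lyz2, a T cell-attracting chemokine or a member of the position or male tract lists. Alternatives changed the day term, the pool block, the arrays used, the filter, the probe set per gene, the normalization, the weights and the array spread, left out each pool, and put KO VAT in place of KO SAT.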

Additional observations from a re-analysis of the deposited data

Results flagged for a closer look

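In 21 of 406 groups of 4 pools (KO SAT or WT SAT, for each named gene), 1 pool stood apart from the other 3 by Dixon's criterion for 4 samples, which chance alone meets in about 1 group in 20. The values are log2 RMA values. Pool 1 of KO SAT lay below the other pools at 5.08 for F13a1 and 10.43 for H2-Aa. Pool 2 of KO SAT lay above the other pools at 7.78 for Igkj1 and 6.61 for Ssty1 and below them at 8.97 for Tgm2. Pool 3 of KO SAT lay above the other pools at 7.23 for Ccrl2 and 8.48 for Slpi. Pool 4 of KO SAT lay above the other pools at 8.36 for Rdh10. Pool 1 of WT SAT lay below the other pools at 7.36 for Fcna. Pool 2 of WT SAT lay above the other pools at 4.35 for Ceacam10, 4.30 for Pate14, 4.65 for Svs2 and 7.30 for Svs4 and below them at 5.86 for H2-Ob. Pool 3 of WT SAT lay above the other pools at 7.95 for Ifih1 and 6.46 for Myd88. Pool 4 of WT SAT lay above the other pools at 5.21 for Adipoq and 6.82 for Vcan and below them at 7.16 for Fn1, 4.69 for Ltbp2 and 6.80 for Mfap5.

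The knockout difference in SAT and that in VAT differed by limma (adjusted p under 0.05) for the genes below. Each value is the log2 difference KO SAT minus WT SAT less the log2 difference KO VAT minus WT VAT. Male tract genes differed upward, Svs4 (6.71), Svs6 (6.02), Svs3a (5.95), Svs2 (5.91), Pate14 (5.14), Lcn5 (4.72), Ceacam10 (4.69), Svs3b (4.18), Sva (4.16), Pate4 (3.88), Spink1 (3.46) and Svs5 (2.87), whereas muscle genes differed downward, Tnnc2 (-6.29), Atp2a1 (-5.99), Acta1 (-5.19), Pvalb (-4.95), Tnnt3 (-2.78), Myl1 (-2.63) and Ckm (-2.52). Position genes differed in both directions: Sfrp2 (-3.33), Hoxc10 (-2.12), Shox2 (-0.96), Tbx15 (-0.85), En1 (-0.78), Hoxa9 (-0.67) and Hoxa10 (-0.48) from the subcutaneous list, and Gata6 (0.99), Hoxc8 (0.95), Thbd (0.83) and Tcf21 (0.69) from the visceral list. Chemokines and cytokines that differed upward were Ccl5 (3.21), Cxcl10 (3.11), Il6 (2.97), Icam1 (2.72), Ccl24 (2.45), Ccl2 (1.45), Ccrl2 (1.32), Cxcl16 (1.05), Cxcl1 (0.98) and Cxcl5 (0.70), and those that differed downward were Ccl8 (-5.06), Saa3 (-3.31) and Slpi (-2.60). Interferon and pattern recognition genes differed upward, namely Gbp3 (2.17), Gbp2 (1.87), Ifit2 (1.57), Gbp7 (1.17), Tlr2 (1.28), Tlr3 (1.17), Iigp1 (1.15), Ifit1 (1.09), Parp14 (1.08), Irgm2 (0.83) and Ifit3 (0.78). Of the resident, monocyte and lipid-associated macrophage genes, Fcna (-2.99), F13a1 (-1.77), Folr2 (-1.77), Itgal (-1.02), Apoe (-0.74) and Gpnmb (-0.62) differed downward, and Fabp4 (1.49), Itgax (1.44) and Vcan (1.20) upward. Antigen presentation, complement and lysosome genes gave H2-DMb2 (-0.85), H2-Ob (-1.27), C4b (-4.06), Cfp (-1.37), Ctsk (-1.26) and Ctsl (-0.70) on the lower side, and Cd86 (1.44), H2-Eb1 (1.34), H2-Ab1 (0.80) and H2-Aa (0.68) on the higher side. Enzymes and transporters that differed upward were Slc7a2 (5.26), Rdh10 (3.76), Aldh1a2 (2.47), Hpgd (2.08), Acod1 (1.65), Epas1 (1.40) and Slc7a1 (0.86), and downward Akr1c18 (-8.72) and Adh7 (-6.36). Activation and stress genes included Tgm2 (1.05), Hspa1b (1.05), Egr2 (0.92) and Calr (0.73), with Egr3 (-0.64) and Rrm2 (-0.64) lower. Lymphocyte, mast cell and red cell genes differed downward, Igkj1 (-5.38), Hbb-b2 (-4.37), Hba-a1 (-4.10), Icos (-3.05), Cd3e (-2.54), Cd3g (-1.80), Cd79a (-1.73), Cd79b (-1.59), Blk (-1.46), Cd3d (-1.42) and Cma1 (-1.37). Stromal, endothelial, epithelial and other genes differed upward, Tnfrsf11b (5.36), Cxcl12 (4.33), Ltbp4 (4.24), Fbln5 (3.25), Il11 (3.19), Ltbp2 (2.93), Cdh5 (2.83), F2r (2.77), Fgf2 (2.59), Tfpi2 (2.30), Timp3 (2.26), Mfap5 (2.21), F3 (1.91), Fscn1 (1.53), Krt18 (1.36), Fstl1 (1.17), Tek (1.12), Adipoq (1.07) and Tie1 (1.07). Since these values also take in the difference between depots of the arrays labelled KO, which go against their depot labels at position genes, genotype and depot cannot be told apart in them.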

How the results depend on the processing

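Deviations of KO SAT and WT SAT pools of the same number correlated at 0.35, -0.37, 0.42 and -0.40, with no common sign. The groups differ in genotype, so these values cannot show whether SAT and VAT pools of one number share mice. That was not tested. With pool number as a fixed replicate block 5579 genes passed, compared with 6279 without it, and 5581 passed with it as a random replicate block (correlation -0.10). The block in a fit of the 8 SAT arrays alone, chosen after seeing the data, gave 6035. Paired by pool number, the spread difference of 0.31 had an exact p of 0.125, the smallest that 4 pairs allow, and with 2 pools a group it was 0.21 on day 1 and 0.42 on day 2, with an exact p of 0.333, also the smallest possible. Without 1 pool it ran from 0.27 to 0.36.

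The count of genes that passed depended on the fit. On day 2 alone 6498 passed, and with the 8 SAT arrays alone 7380. Without the day term 1717 were higher and 1846 lower (3563 in all), on day 1 alone 421 and 161 (582), and with array spread as a term 270 and 1038 (1308). Removing the lowest 40% of probe sets left 2093 lower. Centring arrays on their medians gave 3259 higher and 2030 lower, quantile normalization 2057 and 3166, scaled arrays 2344 and 3401, and array weights 8451 in all. Leaving out 1 pool gave 3071 (without WT SAT pool 4) to 7960 (without WT VAT pool 1) genes, with 3625 without KO SAT pool 1. These were 1646 to 3633 higher and 1425 to 4327 lower. At least 2-fold, 219 to 534 were then higher and 103 to 174 lower. At that size day 1 alone gave 165 higher and 65 lower, day 2 alone 723 and 236, the mean of a gene's probe sets 230 higher, the probe set of largest variance 590, quantile normalization 198, scaled arrays 226 and array spread as a term 63. Of the 495 genes at least 2-fold different, 173 passed in the same direction with array spread as a term, 291 on day 1 alone, 413 with KO VAT in place of KO SAT, and 469 to 495 in the other settings. The 722 genes whose differences were unlike between depots became 455 without the day term, 330 on day 1, 1904 on day 2, 1209 with array weights, 1694 with array spread as a term and 546 to 1310 without 1 pool. The causes were not tested.

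Directions turned for some named genes. With the arrays labelled KO VAT in place of KO SAT they turned for Ace (0.21), Adgre1 (-0.75), Adh7 (0.21), Akr1c18 (1.48), C4b (0.85), Ccl24 (-0.32), Ccrl2 (-0.23), Cd86 (-0.37), Ceacam10 (-0.14), Ctsk (0.30), Cxcl16 (-0.55), En1 (0.50), H2-Aa (-0.15), H2-Ab1 (-0.32), H2-Eb1 (-0.66), Hbb-b2 (0.083), Hoxc10 (0.68), Itgax (-0.14), Krt18 (-0.16), Lcn5 (-0.27), Pate14 (-0.17), Pate4 (-0.28), Retnla (-0.51), Sfrp2 (1.38), Shox2 (0.046), Slpi (0.30), Sva (-0.22), Svs2 (-0.18), Svs3a (-0.078), Svs3b (-0.11), Svs4 (-1.01), Svs5 (-0.92), Svs6 (-0.40), Tbx15 (0.075), Tcf21 (-0.11), Tlr2 (-0.34), Tnfrsf11b (-0.37) and Vcan (-0.066). With array spread as a term they turned for Cd9 (-0.023), Gata4 (0.028), Nfe2l2 (-0.32), Nr5a1 (0.043), Tfrc (-0.18), Uqcrfs1 (-0.19) and Wwp1 (-0.00085). On arrays scaled to one median and interquartile range they turned for Cox5a (-0.27), Cxcl16 (-0.30), H2-Aa (-0.26), H2-Ab1 (-0.41), H2-Eb1 (-0.18), Hif1a (-0.081), Ifit3 (-0.23) and Pbsn (0.22), and with the probe set of largest variance for Pdk1 (0.19). Among all named genes and settings 54 values turned, 436 lost the threshold and 27 gained it, and 6165 kept both direction and side.

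Depth of signal limits the rest: 11590 of the 17097 genes were above background in KO SAT or WT SAT.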

Other observations

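A set of coagulation and matrix genes outside the lists was higher in KO SAT, and all were chosen after their values were seen. F3, tissue factor, which starts the coagulation cascade, lay at 7.96, 7.80, 8.18 and 8.50 in KO SAT, against 5.76, 6.17, 6.17 and 5.23 in WT SAT (2.28 ± 0.32, SE, adjusted p = 0.0004 by limma). Its inhibitors Tfpi (2.22) and Tfpi2 (1.82) and the thrombin receptor gene F2r (2.23) were higher in the same pools. KO VAT minus WT SAT was 2.00 for F3, 1.74 for Tfpi, 0.93 for F2r and 0.37 for Tfpi2.

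Among matrix and growth factor genes, Ltbp4, which holds latent TGF-beta in elastic fibres, lay at 8.87, 8.30, 8.46 and 8.62 in KO SAT, against 6.20, 6.30, 5.77 and 6.24 in WT SAT (2.43 ± 0.24). Ltbp2 (1.93), the elastic fibre gene Fbln5 (1.89), the metalloproteinase inhibitor gene Timp3 (1.73), the growth factor gene Fgf2 (2.19) and the cytokine gene Il11 (1.82) were higher as well. In KO VAT minus WT SAT Ltbp4 was at 0.38, Fbln5 at 0.40, Fgf2 at 1.38 and Il11 at 0.11. Summed stromal marker levels ran from 10342 to 12526 in KO SAT and from 6171 to 8257 in WT SAT, and their part in these differences was not tested.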
